A study of Homo sapiens with 4 samples.

Results

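Messenger RNA levels of the unfolded protein response and the integrated stress response were described in HCCLM3, a human hepatoma cell line. Members were 33 genes chosen by symbol for their known place in these pathways, and 32 of them had values among the 13036 genes measured (PSAT1, an enzyme of serine synthesis, was not analysed here). The 32 genes were read from 102 of the 38510 transcripts listed, and the level of a gene was the sum of the FPKM of its transcripts (fragments mapped, scaled to transcript length and library total). All cells carried a lentiviral short hairpin RNA, either a control hairpin (shCtrl, 2 libraries) or a hairpin against KIAA1429 (shKIAA1429, 2 libraries), and the labels name no stressor. KIAA1429, now named VIRMA, is a subunit of the complex that writes N6-methyladenosine on RNA. The knockdown used 1 hairpin sequence in 1 cell line, and the labels do not say whether the libraries of a group came from separate cultures, so p-values measure only the spread between these libraries.

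Proteins that enter the secretory pathway fold in the endoplasmic reticulum (ER), and liver cells carry a heavy secretory load. When folding lags, 3 membrane sensors, ERN1 (IRE1), EIF2AK3 (PERK) and ATF6, start the unfolded protein response, which raises chaperones and the machinery of ER-associated degradation (ERAD). EIF2AK3 also phosphorylates the translation factor eIF2, as do kinases that sense amino acid shortage, heme shortage or viral RNA. Translation of ATF4 then increases, and ATF4 with DDIT3 (CHOP) drives the genes of the integrated stress response.

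Sequences that mark the 2 arms are shown here because they belong to the splicing and promoter features described with the genes. ERN1 cuts 26 bases out of XBP1 mRNA, and the cut transcript encodes the active factor. The removed bases, as placed by the GENCODE annotation used, lie inside an exon of the uncut transcript on the minus strand at GRCh37 chr22:29192116-29192141. They are printed in capitals with 2 flanking bases on each side, a stretch at chr22:29192114-29192143. A stretch of the same length starting at the next base would leave the same spliced sequence, so the capitals may not mark the exact cut sites.
XBP1 intron: ccGCAGCACTCAGACTACGTGCACCTCTgc

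Promoter windows of 300 bases, from 250 bases before to 50 bases after the start, were taken from RefSeq (GRCh38.p14) for 32 of the 33 members (PDIA3 had no entry) and for 27305 genes in all. They were searched on both strands for the ER stress element (CCAAT and CCACG separated by any 9 bases), to which ATF6 and NF-Y bind, and for the element read by ATF4 and its partners, TGATGNAA. The ER stress element was found in 22 of the 27305 windows (0.081%) and in 5 members, HSPA5, HSP90B1, CALR, CRELD2 and PDIA6, all of them chaperones or an isomerase. TGATGNAA was found in 1024 windows (3.75%) and in 3 members, CHAC1, HERPUD1 and CREB3L2. The members were chosen for their known pathway, so these matches describe them and are not evidence of binding in these cells. Below, 4 matches are printed with the motif in capitals and 5 flanking bases, each on the strand on which the motif reads forward. They lie at chr9:125241386-125241414 (HSPA5, minus strand), chr12:103930211-103930239 (HSP90B1, plus strand), chr15:40953257-40953274 (CHAC1, minus strand) and chr16:56931961-56931978 (HERPUD1, minus strand) of GRCh38.p14.
HSPA5: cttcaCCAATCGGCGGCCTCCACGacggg
HSP90B1: cctgaCCAATCGGAAGGAGCCACGcttcg
CHAC1: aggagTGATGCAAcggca
HERPUD1: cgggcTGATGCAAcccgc

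The libraries were first checked as a whole. Summed FPKM was between 370253.5 and 390224.4, mitochondrial transcripts took 9.29 to 10.6%, and read depth is unknown because the values are normalized. VIRMA measured 9.37 and 14.1 FPKM in the shCtrl libraries and 6.90 and 8.52 FPKM in the shKIAA1429 libraries (log2 fold change -0.53 ± 0.24, SE, adjusted p = 0.917, limma), so the knockdown itself was visible in direction but did not pass the test. Of 5 epithelial markers, the keratins KRT8, KRT18 and KRT19 had values, while EPCAM and CDH1 had none. The mesenchymal genes VIM, CDH2 and FN1 were present. Of 11 hepatocyte and fetal liver genes only SERPINA1 had values (3.34 to 5.63 FPKM). The summed level of the 3 keratins was 2439.5 to 2511 FPKM in shCtrl and 2602 to 2664 FPKM in shKIAA1429. That of the mesenchymal markers was 1100 to 1162 and 1415 to 1453 FPKM. None of the 3 endothelial markers had values, CD68 was the 1 of 4 leukocyte markers with values, and 2 of 3 fibroblast markers summed to 8.68 to 11.5 FPKM. The part of these markers in the results was not tested. In bulk RNA, fewer cells of a kind and less RNA per cell cannot be told apart.

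The 32 genes covered most of the range of expression in these cells. Mean levels ran from 1.78 FPKM for EIF2AK3, at the 20.5th percentile of all genes measured, to 480.3 FPKM for CALR, at the 99.5th percentile. ATF4 (percentile 98.4), the 4 isomerases and most chaperones were abundant, from percentile 86.1 for SDF2L1 upward, while the cochaperones DNAJB11, DNAJC3 and DNAJB9 were lower, at percentiles 68.4, 55.1 and 27.6. The plot of levels in each library shows the order and the spread.

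**Figure D1:**
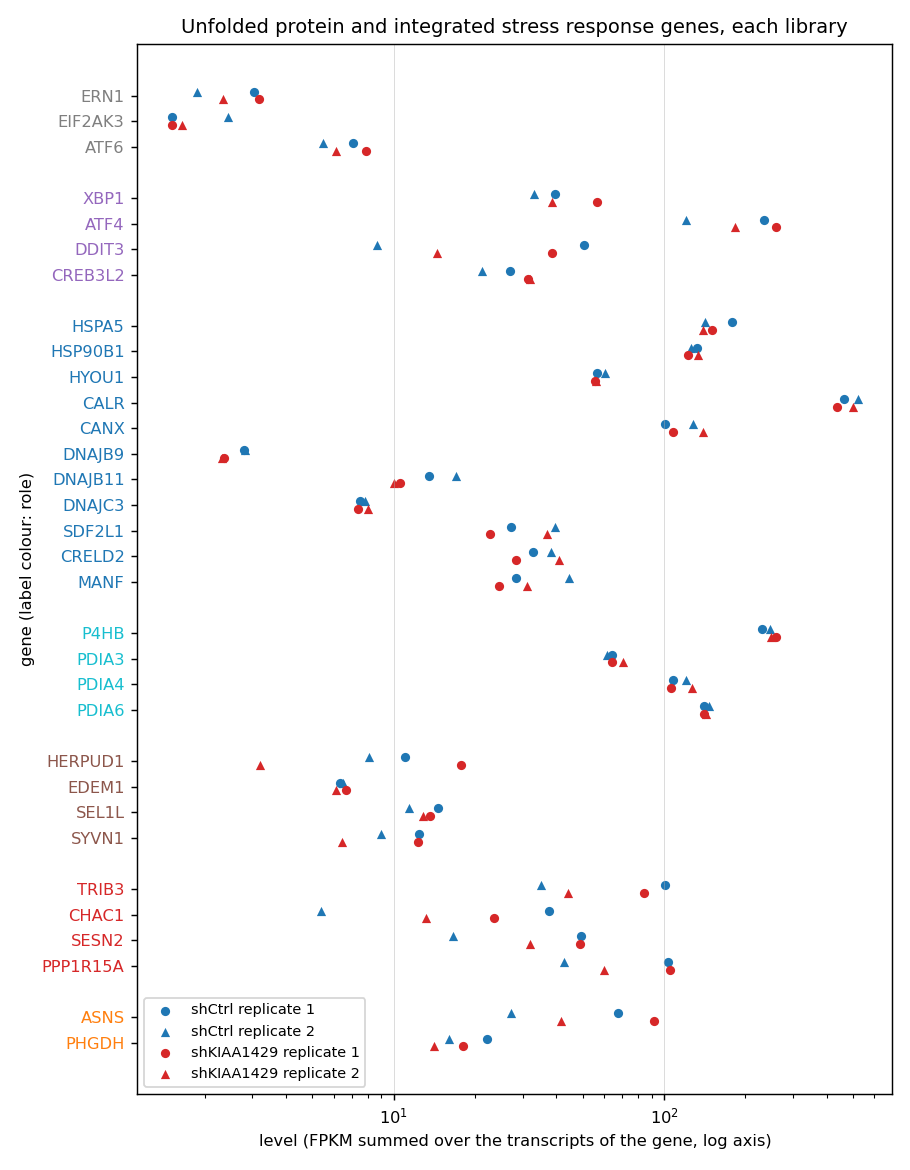
Level of each gene in FPKM (log axis) in the 4 libraries, with genes in rows by role, shCtrl in blue, shKIAA1429 in red, replicate 1 as circles and replicate 2 as triangles. The isomerases and most chaperones show 4 points close together. SDF2L1 (22.6 to 39.4 FPKM), MANF (24.4 to 44.5 FPKM) and DNAJB11 (10.02 to 17.1 FPKM) are more spread. DDIT3, CHAC1, TRIB3, SESN2, PPP1R15A and ASNS show the circles of both groups to the right of the triangles.

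The comparison of the groups asked whether knockdown of KIAA1429 moved the pathway. No member was called at an adjusted p under 0.05 with a log2 fold change over 1 in either direction, against 0 of the 11657 genes tested (0%), and the smallest adjusted p of a member was 0.832 (limma). At an unadjusted p under 0.05 there was 1 member of 32 (3.1%), DNAJB11, against 5.63% of all genes tested. Both shKIAA1429 values were above both shCtrl values in 2 members (6.25%, against 16.9% of all genes), CREB3L2 and P4HB, and below them in 3 members (9.38%, against 16.7%), DNAJB11, DNAJB9 and HYOU1. In the other 27 members the groups overlapped. The fold change (log2, shKIAA1429 over shCtrl, on FPKM + 1, a scale that shrinks the change of genes with low levels) was above 0 in 17 members and below 0 in 15, with a median of 0.02, a minimum of -0.52 and a maximum of 0.51, beside a median of -0.01 over all genes tested.

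**Figure D2:**
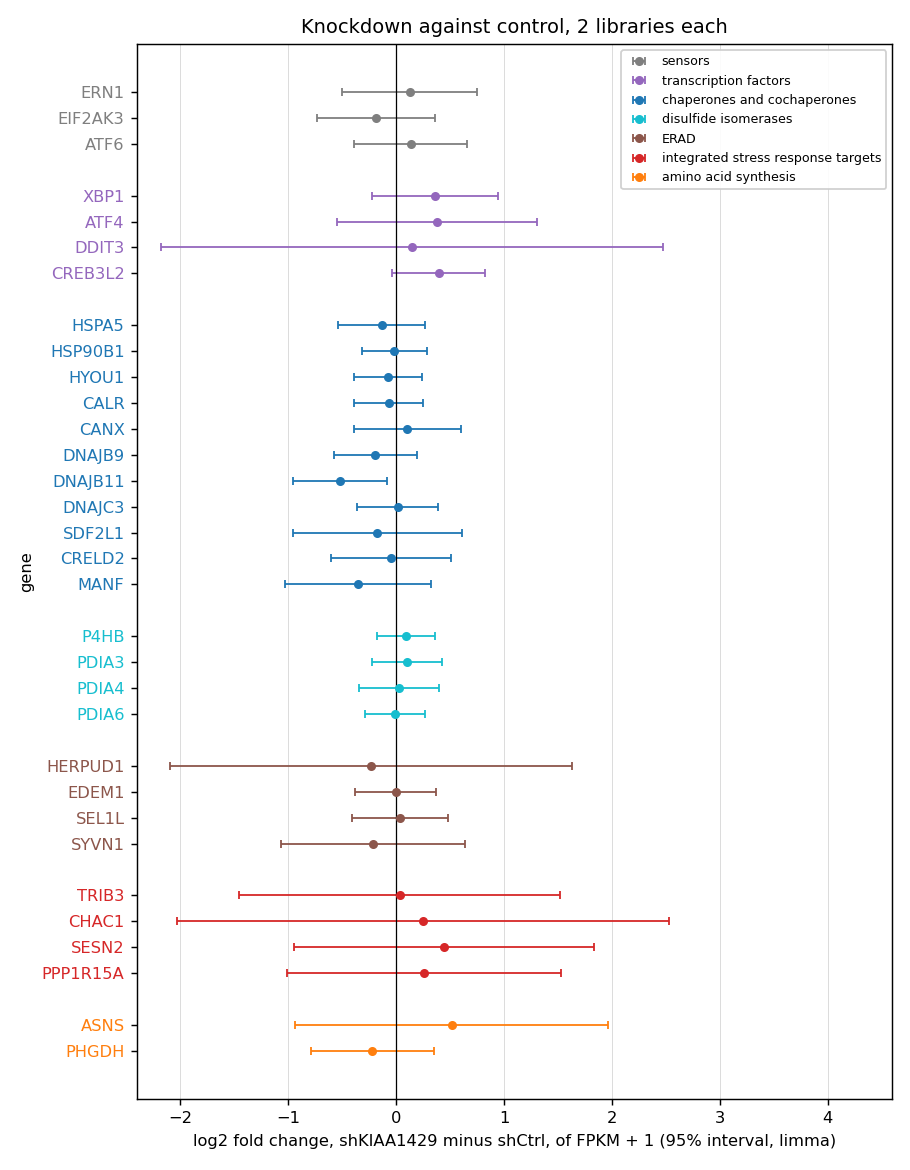
Log2 fold change of shKIAA1429 against shCtrl for each gene with its 95% interval from limma, coloured by role. All intervals but that of DNAJB11 (-0.96 to -0.08) include 0, and those of DDIT3, CHAC1, HERPUD1, TRIB3, SESN2, PPP1R15A and ASNS are the wide ones.

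The 3 sensors overlapped between the groups, with ERN1 and EIF2AK3 at low levels and ATF6 near the middle of all genes (50.7th percentile). ERN1, the kinase and endonuclease that cuts XBP1 mRNA, measured 3.05 and 1.87 FPKM in shCtrl and 3.16 and 2.33 FPKM in shKIAA1429 (log2 fold change 0.13, interval -0.50 to 0.75). EIF2AK3, the eIF2 kinase of the ER, measured 1.51 and 2.44 FPKM in shCtrl and 1.51 and 1.65 FPKM in shKIAA1429 (log2 fold change -0.19, interval -0.74 to 0.36). In both genes the shCtrl libraries spanned the shKIAA1429 values or nearly so. ATF6, the factor that is released from the membrane by cleavage in the Golgi, measured 7.09 and 5.46 FPKM in shCtrl and 7.87 and 6.12 FPKM in shKIAA1429 (log2 fold change 0.14, interval -0.39 to 0.66). These are mRNA levels, and activation of the sensors, which takes place on the protein, was not measured.

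All 4 transcription factors had a log2 fold change above 0 and none passed the test, and for DDIT3 the direction turned on the linear scale. CREB3L2, a membrane-anchored factor of the ATF6 kind, was the factor whose groups did not overlap, with 27.0 and 21.2 FPKM in shCtrl and 31.5 and 32.0 FPKM in shKIAA1429 (log2 fold change 0.39 ± 0.17, SE, adjusted p = 0.899, limma). XBP1 (chr22:29190543-29196585) measured 39.6 and 32.9 FPKM in shCtrl and 56.4 and 38.6 FPKM in shKIAA1429 (0.36, interval -0.22 to 0.95). The XBP1 groups overlapped, since shKIAA1429 replicate 2 was just below shCtrl replicate 1. ATF4, the central factor of the integrated stress response, measured 234 and 120 FPKM in shCtrl and 260 and 183 FPKM in shKIAA1429 (0.38, interval -0.55 to 1.31). DDIT3, the proapoptotic factor CHOP, measured 50.6 and 8.67 FPKM in shCtrl and 38.6 and 14.5 FPKM in shKIAA1429 (0.15, interval -2.18 to 2.47). Both factors were higher in replicate 1 than in replicate 2 of each group, and for DDIT3 that gap was far larger than the difference between the group means of 29.6 FPKM in shCtrl and 26.6 FPKM in shKIAA1429, which ran against the log2 fold change.

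Splicing of XBP1 by ERN1 was followed only through the FPKM assigned to its transcripts, of which 5 were listed. Reads across the junction were not counted. The listed forms also differ in their ends, at chr22:29191163 for XBP1-202 and chr22:29190543 for XBP1-201. The 26 bases therefore need not decide the assignment, and these values are no direct measure of cutting by ERN1. XBP1-202 lacks the 26 bases shown above and carries 376 codons, whereas XBP1-201 keeps them and carries 261 codons, in the GENCODE annotation used (a later version of XBP1-202 than the one listed, whose span is shorter). XBP1-202 measured 16.5 and 14.9 FPKM in shCtrl and 16.8 and 16.6 FPKM in shKIAA1429. XBP1-201 measured 3.08 and 0.089 FPKM in shCtrl and 2.71 and 1.90 FPKM in shKIAA1429. The level assigned to the spliced transcript was thus nearly flat over the 4 libraries, while that assigned to XBP1-201 was low and uneven. The share of XBP1-202 in the sum of both was 84.3 and 99.4% in shCtrl (91.8% ± 10.7, SD, n = 2) and 86.1 and 89.7% in shKIAA1429 (87.9% ± 2.57, SD, n = 2), a difference of -3.95 percentage points (exact permutation test, two-sided, p = 1, where 2 against 2 libraries cannot go below 0.333).

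A further transcript, XBP1-204, also keeps the 26 bases and was as abundant as XBP1-202, at 16.9 and 14.7 FPKM in shCtrl and 32.98 and 17.4 FPKM in shKIAA1429 (log2 fold change 0.57 ± 0.36, SE, adjusted p = 0.973, limma). The higher XBP1 sum of shKIAA1429 replicate 1 lay in XBP1-204. Over all listed transcripts XBP1-202 took 41.6 and 45.3% in shCtrl and 29.7 and 42.9% in shKIAA1429 (a difference of -7.19 percentage points, exact permutation p = 0.667). XBP1-203, which keeps the 26 bases too, stayed under 0.70 FPKM in each library, and XBP1-207, whose exons were not given in the annotation used, measured 2.08 to 3.48 FPKM. The share of spliced XBP1 therefore depended on which transcripts stood for the uncut form, and with 2 against 2 libraries neither choice could pass a test.

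**Figure D3:**
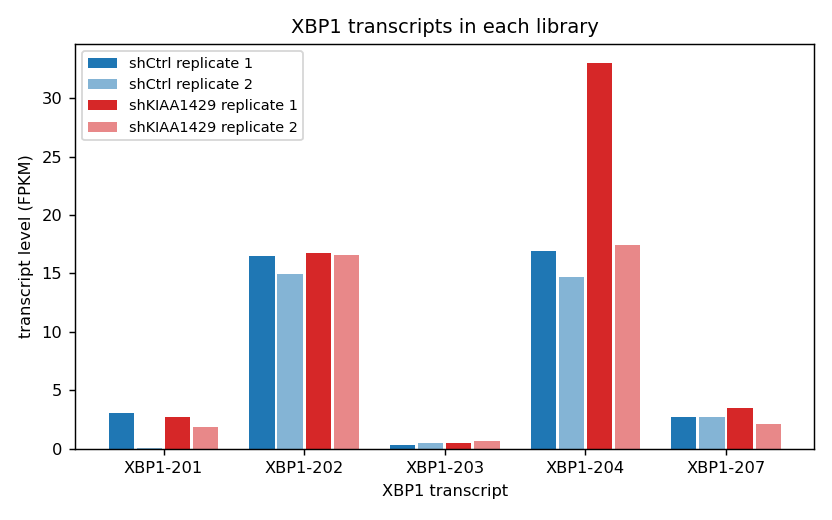
FPKM of each listed XBP1 transcript, with 1 bar per library. XBP1-202, the spliced form, is between 14.9 and 16.8 FPKM in all 4 libraries, and XBP1-204 stands out in shKIAA1429 replicate 1 at 32.98 FPKM.

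Among the 11 chaperones and cochaperones of the ER, 9 had a fold change below 0, as did 6045 of the 11657 genes tested. The median of the chaperones was -0.07. Groups did not overlap in 3 of them, all lower in shKIAA1429 (27.3%, against 16.7% of all genes tested). DNAJB11 (ERdj3, chr3:186285192-186303589), which hands unfolded chains to HSPA5, measured 13.5 and 17.1 FPKM in shCtrl and 10.6 and 10.02 FPKM in shKIAA1429. Its log2 fold change of -0.52 ± 0.17 (SE) had an unadjusted p of 0.0281 and an adjusted p of 0.832 (limma), and it did not pass the test. DNAJB11-201, one of its 2 listed transcripts, both annotated as coding, measured 13.1 and 16.9 FPKM in shCtrl and 10.3 and 1.91 FPKM in shKIAA1429, because in shKIAA1429 replicate 2 most of the level, 8.12 FPKM, was assigned to DNAJB11-202. The gene sum was lower in both shKIAA1429 libraries, whereas the assignment to transcripts differed between them.

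DNAJB9 (ERdj4), a cochaperone that represses ERN1, measured 2.79 and 2.83 FPKM in shCtrl and 2.35 and 2.31 FPKM in shKIAA1429 (log2 fold change -0.19, interval -0.58 to 0.19). HYOU1, a nucleotide exchange factor for HSPA5, measured 56.6 and 60.6 FPKM in shCtrl and 55.4 and 55.9 FPKM in shKIAA1429 (-0.07, interval -0.39 to 0.24). Neither gap passed the test although the groups did not overlap. HSPA5 (BiP, chr9), the main chaperone of the ER and the usual readout of the unfolded protein response, measured 179 and 141 FPKM in shCtrl and 150 and 139 FPKM in shKIAA1429 (log2 fold change -0.14, interval -0.54 to 0.27). One shCtrl library was above the others, and the other was between the shKIAA1429 values.

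The other chaperones had fold changes between -0.35 and 0.10. HSP90B1 (GRP94) was at -0.02 and the lectin chaperones CALR and CANX at -0.07 and 0.10, with intervals of -0.32 to 0.28, -0.39 to 0.25 and -0.39 to 0.60. DNAJC3, a cochaperone that also restrains eIF2 kinases, was at 0.01. SDF2L1, a partner of DNAJB11, was at -0.17, and the secreted stress proteins CRELD2 and MANF were at -0.05 and -0.35. MANF-202, annotated as a processed transcript and not as coding, was at -0.95. The coding MANF-204 was at -0.11, and its groups overlapped (both transcripts named after their values were seen). The 4 disulfide isomerases had the smallest fold changes of the role groups. P4HB, PDIA3, PDIA4 and PDIA6 had fold changes of 0.09, 0.10, 0.03 and -0.01. P4HB measured 230 and 246 FPKM in shCtrl and 259 and 249 FPKM in shKIAA1429, so its groups did not overlap, by a margin smaller than the gap between the shCtrl libraries.

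The 4 ERAD genes overlapped between the groups. SEL1L and SYVN1, adaptor and catalytic subunit of the main ubiquitin ligase of the ER, had fold changes of 0.04 and -0.21, and EDEM1, which trims mannose from glycoproteins bound for degradation, was at -0.00 with 6.34 and 6.49 FPKM in shCtrl and 6.66 and 6.14 FPKM in shKIAA1429. HERPUD1, a scaffold of the ligase, was at -0.24 on the log2 scale with an interval of -2.10 to 1.63, while its mean FPKM was 9.55 in shCtrl and 10.5 in shKIAA1429, the opposite direction. Its level was 11.0 and 8.07 FPKM in shCtrl and 17.8 and 3.19 FPKM in shKIAA1429, so both the highest and the lowest value lay in shKIAA1429. The EDEM1 and HERPUD1 values were chosen for printing after they were seen.

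At the level of single transcripts, 81 of the 102 member transcripts were tested and none was called, as was none of the 24996 tested in all (0%). An unadjusted p under 0.05 was found for 1 member transcript, against 6.28% of all, and 3 had a log2 fold change over 1 in either direction, against 7.23% of all. P4HB-224, a minor form, measured 10.04 and 10.98 FPKM in shCtrl and 19.8 and 20.9 FPKM in shKIAA1429 (log2 fold change 0.89, adjusted p = 0.324, limma), and is named after its values were seen. The groups were well apart for this form, which made up 4.36 to 8.40% of the P4HB sum. Beside DNAJB11-201, at -1.47, the transcripts over the fold threshold were SYVN1-203 at 1.23 and CREB3L2-204 at 1.32. SYVN1-203 measured 1.88 and 2.01 FPKM in shCtrl and 9.18 and 3.69 FPKM in shKIAA1429, while the SYVN1 sum was not higher there. CREB3L2-204 measured 4.92 and 0.39 FPKM in shCtrl and 6.0 and 6.26 FPKM in shKIAA1429, so 1 shCtrl library stood apart.

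The integrated stress response targets and ASNS differed more between the libraries of each group than between the group means. TRIB3, a pseudokinase induced by DDIT3, measured 101 and 35.2 FPKM in shCtrl and 84.1 and 44.3 FPKM in shKIAA1429. CHAC1, an enzyme that breaks down glutathione, measured 37.5 and 5.38 FPKM in shCtrl and 23.4 and 13.2 FPKM in shKIAA1429. In both genes replicate 1 was the higher library of each group and the control group held both extremes. SESN2, which restrains mTORC1 when leucine is short, measured 49.4 and 16.6 FPKM in shCtrl and 48.8 and 32.0 FPKM in shKIAA1429. PPP1R15A (GADD34), which brings a phosphatase to eIF2 and so ends the response, measured 103 and 42.7 FPKM in shCtrl and 106 and 60.0 FPKM in shKIAA1429. ASNS, asparagine synthetase, measured 67.8 and 27.2 FPKM in shCtrl and 91.9 and 41.7 FPKM in shKIAA1429. Again the libraries numbered 1 were the high ones. The fold changes of these genes between the groups were 0.03, 0.25, 0.45, 0.26 and 0.51, with standard errors of 0.57, 0.88, 0.54, 0.49 and 0.56. For TRIB3 and CHAC1 the mean FPKM ran the other way, at 68.0 and 21.5 in shCtrl and 64.2 and 18.3 in shKIAA1429. TRIB3, CHAC1, SESN2 and PPP1R15A were chosen for printing after their values were seen.

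The spread was then counted over all genes, as the log2(FPKM + 1) of replicate 1 minus that of replicate 2 in each group. A difference above 0.5 in both groups was found in 6 of 32 members (18.8%), DDIT3, TRIB3, CHAC1, SESN2, PPP1R15A and ASNS, against 2.23% of all genes tested. It was found in 4 of 4 integrated stress response targets. This count, like that of the wider list below, was added after the data were seen. It describes a gap already seen in the same libraries and is no separate support for it. In shCtrl, replicate 1 held 5.83 times the DDIT3 level of replicate 2, 6.97 times the CHAC1 level and 2.49 times the ASNS level. In shKIAA1429 the ratios of the same genes were 2.67, 1.78 and 2.20. ATF4 itself lay at the edge of the threshold, with differences of 0.95 and 0.50 (ratios of 1.94 and 1.42), just outside it in shKIAA1429. The count was 7 members with upper quartile scaling, 6 on a TPM scale, 7 with a pseudocount of 0.1 and 2 with a difference over 1, where the share of all genes was 2.50, 2.92, 3.50 and 0.24%. Whether the replicate number marks a culture, a day or a sequencing run is not given in the labels, and its part in this pattern was not tested.

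**Figure D4:**
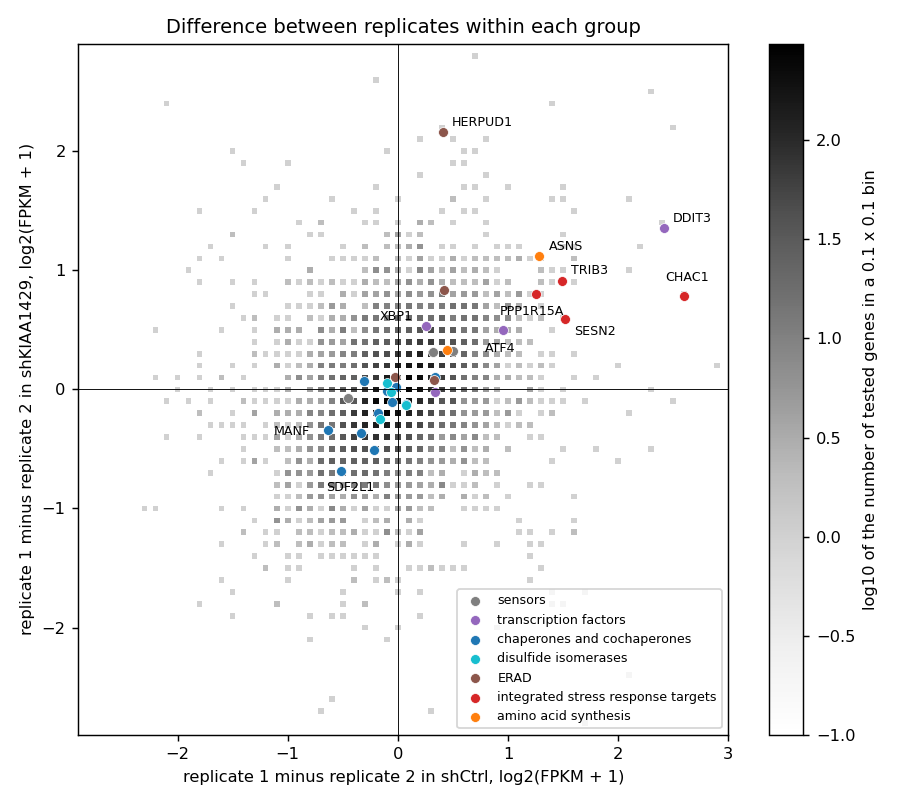
Difference between replicate 1 and replicate 2, log2(FPKM + 1), in shCtrl (horizontal) and shKIAA1429 (vertical), with members coloured by role over all 11657 genes tested, binned in grey. DDIT3, CHAC1, TRIB3, SESN2, PPP1R15A and ASNS lie in the upper right, above 0.5 on both axes, and the chaperones lie around or below 0.

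The ER chaperones did not share this pattern in their gene sums. Within CANX, the assignment to transcripts did differ by replicate number. CANX-201 measured 94.0 and 19.5 FPKM in shCtrl and 98.3 and 24.5 FPKM in shKIAA1429. CANX-202 measured 1.04 and 103 FPKM in shCtrl and 1.22 and 109 FPKM in shKIAA1429 (both transcripts named after their values were seen). The counts that follow are of gene sums. Replicate 1 was below replicate 2 in both groups, by any amount, in 7 of the 11 chaperones, against 34.9% of all genes, and above it in 1, HSPA5, against 31.6% of all genes. A difference below -0.5 in both groups was found in SDF2L1 alone among the 32 members (3.1%), against 2.77% of all genes. SDF2L1 measured 27.3 and 39.4 FPKM in shCtrl and 22.6 and 37.03 FPKM in shKIAA1429, and MANF measured 28.4 and 44.5 FPKM and 24.4 and 31.2 FPKM (both chosen for printing after their values were seen). The median difference between replicates was -0.18 in shCtrl and -0.12 in shKIAA1429 for the chaperones, -0.08 and -0.08 for the isomerases, and 1.51 and 0.79 for the integrated stress response targets, beside medians of -0.00 and -0.02 over all genes. The ERAD genes were between these groups at 0.37 and 0.47, led in shKIAA1429 by HERPUD1, whose 17.8 FPKM in replicate 1 was 5.57 times the value in replicate 2. Of these 2 HERPUD1 values, 9.80 and 0.35 FPKM were assigned to HERPUD1-216, annotated as a processed transcript and not as coding. The coding HERPUD1-204 took 3.82 and 2.13 FPKM (both transcripts named after their values were seen). PHGDH, which opens serine synthesis from glycolysis, measured 22.1 and 16.0 FPKM in shCtrl and 18.03 and 14.1 FPKM in shKIAA1429, and so went with the higher libraries by a smaller amount (also chosen for printing after its values were seen).

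**Figure D5:**
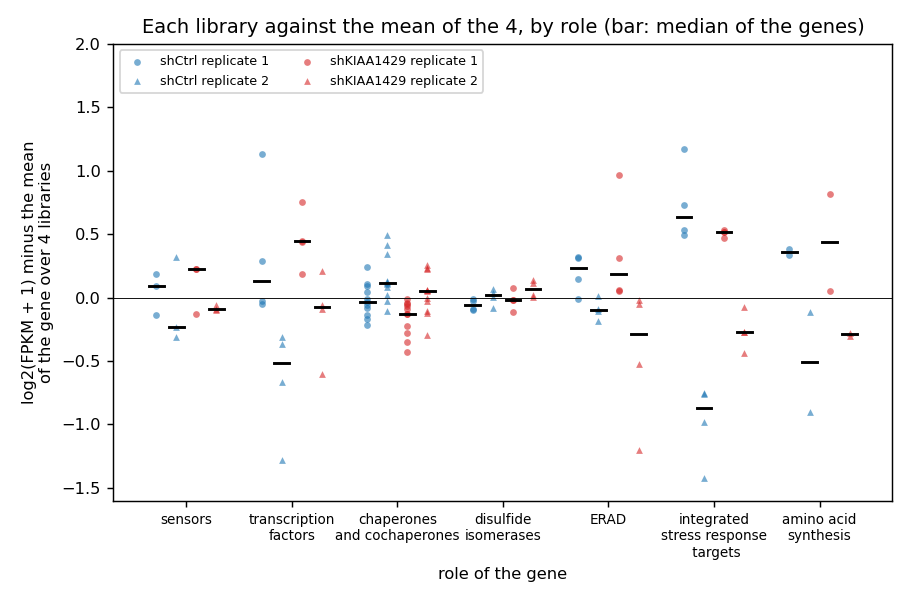
Log2(FPKM + 1) of each gene in each library minus the mean of that gene over the 4 libraries, by role, with the median of the role group as a bar. For the integrated stress response targets the shCtrl medians are 0.63 for replicate 1 and -0.87 for replicate 2, and the shKIAA1429 medians are 0.52 and -0.27 in that order, while those of the chaperones run from -0.13 to 0.11 over the libraries.

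The libraries thus ordered the integrated stress response targets in the same way in both groups, with shCtrl replicate 2 at the low end. Without shCtrl replicate 1, ATF4, CHAC1 and SESN2 had log2 fold changes of 0.86, 1.55 and 1.20, and without shCtrl replicate 2 they were at -0.10, -1.05 and -0.31. Without shKIAA1429 replicate 1 they were at 0.13, -0.14 and 0.15, and DDIT3, TRIB3, PPP1R15A and ASNS were also below 0, at -0.53, -0.42, -0.14 and -0.05. The sign of the difference between the groups depended on which library was left out.

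Other genes of the pathways were taken from 5 wider lists. None of their genes was called. Of 37 further integrated stress response genes tested, 1 (2.70%, against 5.63% of all genes tested) had an unadjusted p under 0.05, with a median log2 fold change of 0.07. That gene was ATF3, a stress-induced factor, at 0.61 and 1.24 FPKM in shCtrl and 3.09 and 2.78 FPKM in shKIAA1429 (log2 fold change 1.05, adjusted p = 0.541, limma). ATF3 was a gene of low level, with a mean of 1.93 FPKM (percentile 22.1). With shCtrl replicate 1 under 1 FPKM, it passed the filter through shKIAA1429, the group where it was high. ALDH18A1, an enzyme of proline synthesis, had the next smallest p, at a log2 fold change of 0.36. Replicate 1 was above replicate 2 by over 0.5 in both groups in 10 of the 37 (27.0%, against 2.23% of all genes tested), namely CEBPB, NUPR1, DDIT4, SLC7A11, SLC6A9, STC2, GDF15, KLHL24, CBS and VEGFA. GDF15, a secreted stress cytokine, measured 303 and 104 FPKM in shCtrl and 239 and 93.5 FPKM in shKIAA1429, and DDIT4, an inhibitor of mTORC1, measured 129 and 29.3 FPKM and 150 and 74.3 FPKM. The amino acid transporter SLC7A11 was at 15.3 and 6.48 FPKM in shCtrl and 12.2 and 8.16 FPKM in shKIAA1429. These genes, named after their values were seen, were high in the same libraries as DDIT3 and TRIB3. ATF3 was not, since both of its higher values were in shKIAA1429.

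The lists around the ER lumen had 0 to 2 genes each at an unadjusted p under 0.05, which was 0 to 4.17% of 3 lists and 10.5% of the regulators, against 5.63% of all genes tested. Of 24 genes of translocation and glycosylation, 1 did, SEC61A1, the pore of the protein channel into the ER. It measured 99.0 and 98.5 FPKM in shCtrl and 55.9 and 61.0 FPKM in shKIAA1429 (log2 fold change -0.75, unadjusted p = 0.00174, adjusted p = 0.417, limma), with a gap between the groups much wider than that within them. OSTC, a subunit of the oligosaccharyltransferase, was next at 0.52. Of 30 further folding genes, 1 did, the prolyl isomerase FKBP11, at 13.2 and 12.1 FPKM in shCtrl and 17.97 and 18.4 FPKM in shKIAA1429 (0.49, adjusted p = 0.753, limma), and FKBP9 was next at 0.35. Of 19 regulators, 2 did, the protease MBTPS1 that cleaves ATF6 (0.43) and the factor CREB3L1 (0.42). Of 23 further ERAD genes none did, and UBE2G2 and DERL1, a conjugating enzyme and a channel of the pathway, had the smallest p at -0.44 and -0.54. Medians of the lists were between -0.06 and 0.05, beside -0.01 over all genes tested.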

How the data were processed

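The deposited files hold FPKM per GENCODE transcript, made by the authors. The labels name hg19 and Bowtie2 2.1.0, the methods of the study name an HTSeq and DESeq route on counts, and the tool behind the FPKM is not given in the sources used here. Each listed transcript exceeds 0.5 FPKM in at least 1 library, and FPKM keeps no read depth, so no counting error is given. A spreadsheet-style date stood in place of 108 gene symbols in 1 file of each group, and these symbols were read from the remaining files. FPKM was summed per gene identifier, which leaves overlapping genes, paralogs and reads split between transcripts uncertain.

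Genes (11657) and transcripts (24996) that reached 1 FPKM in 2 or more libraries were tested as log2(FPKM + 1) with limma 3.58.1 in R 4.3.3 (trend, two-sided, group only), adjusted by Benjamini-Hochberg over all tested. All 32 members passed that filter. A call needed an adjusted p under 0.05 and a log2 fold change over 1 in either direction. The fit was run on simulated data as a check, and the smallest change that 2 against 2 libraries can detect is not given here. Promoter and intron sequences were read from RefSeq and GRCh37. The members, lists and rules were chosen with earlier results of these data known. Each member is named. Values in every library are given for members with an unadjusted p under 0.05, groups that do not overlap or a fold change of at least 0.5, for sensors, transcription factors and HSPA5, and for those said to be chosen later. Transcripts are named at an unadjusted p under 0.05 or a fold change over 1 with at least 10% of the gene, and the 2 genes of smallest p from each wider list. The count of differences between replicates was added after the data were seen.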

Additional observations from a re-analysis of the deposited data

How the results depend on the processing

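No member was called under any alternative run: upper quartile scaling, a TPM scale, a pseudocount of 0.1, no filter, the filter in every library, a robust variance, the replicate block, leaving out a library or either threshold alone. By fold change over 1 alone, 125 of all genes passed and 0 members did. Upper quartile scaling turned the fold changes of PDIA6 (0.0038) and EDEM1 (0.0124) to above 0, and the TPM scale turned those of DNAJC3 (-0.0362), PDIA4 (-0.0250), SEL1L (-0.0130) and TRIB3 (-0.0193) to below 0. These fold changes are near 0 in every case.

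The replicate number is shared by the groups, but the labels do not say that it marks a batch. Deviations of same-numbered libraries from their group means correlated at r = 0.32 over 11657 genes, with 2 pairs. With the replicate block, 5 members had an unadjusted p under 0.05 (15.6%, against 10.9% of all genes), namely ASNS, DNAJB11, XBP1, MANF and CREB3L2, with adjusted p of 0.371 to 0.449 (limma). VIRMA then had an adjusted p of 0.420, and no other call changed.

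Leaving out each library gave 0 to 1 genes called, 0 to 0 members, 0 to 0 transcripts, 1 to 6 members at an unadjusted p under 0.05 and 16 to 22 members whose groups did not overlap, which is easier with 1 library in a group. Both highest counts of members, and the 1 gene, came without shCtrl replicate 1, where ATF4, CHAC1, SESN2, DNAJB11, MANF and CREB3L2 were the 6, and without shKIAA1429 replicate 2 there were 2, HERPUD1 and XBP1. A lone library was assumed to vary like the others, so no conclusion on the members was drawn from the counts by unadjusted p. The share of all genes without overlap is not given for these runs. The 16 to 22 members can therefore not be compared with a general rate. The median of the members ran from -0.05 to 0.04, VIRMA from -0.80 to -0.26 and the XBP1 spliced share from -11.5 to 3.61 percentage points. With XBP1-207 counted as spliced, an alternative added after the data were seen, the share differed by -8.97 points (exact permutation p = 0.333, the smallest possible).

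Leaving out a library turned the sign in 24 of 32 members. The 8 that kept it were XBP1, CREB3L2, HYOU1, DNAJB9, DNAJB11, MANF, P4HB and PDIA3. The log2 fold changes ran from -1.06 to 1.36 for DDIT3, -1.05 to 1.55 for CHAC1, -1.32 to 0.85 for HERPUD1, -0.31 to 1.20 for SESN2, -0.13 to 1.16 for ASNS, -0.10 to 0.86 for ATF4, -0.71 to 0.78 for TRIB3 and -0.37 to 0.88 for PPP1R15A. They ran from -0.12 to 0.37 for ERN1, -0.41 to 0.0417 for EIF2AK3, -0.0255 to 0.30 for ATF6, -0.31 to 0.0357 for HSPA5, -0.0779 to 0.0424 for HSP90B1, -0.17 to 0.0277 for CALR, -0.0787 to 0.29 for CANX, -0.0409 to 0.0669 for DNAJC3, -0.52 to 0.17 for SDF2L1 and -0.30 to 0.20 for CRELD2. They ran from -0.10 to 0.15 for PDIA4, -0.0468 to 0.0196 for PDIA6, -0.0539 to 0.0481 for EDEM1, -0.13 to 0.20 for SEL1L, -0.63 to 0.21 for SYVN1 and -0.44 to 0.00063 for PHGDH.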
